A study of Mus musculus with 6 samples.

Results

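The genes described here encode the proteasome of mouse ileal organoids. They were chosen by name from a table of 21534 gene rows: every Psma, Psmb, Psmc, Psmd, Psme, Psmf and Psmg gene with a number, together with Pomp, Adrm1 and Nfe2l1. The rule took 50 rows, and 49 of them had enough reads to be tested. They were grouped by their place in the particle: 14 constitutive core subunits, 3 immunoproteasome catalytic subunits, 18 subunits of the regulatory particle, 8 assembly chaperones, 5 other activators and inhibitors, the thymus form Psmb11, and the transcription factor Nfe2l1. Psma8, the testis form of a core subunit, was not analysed here.

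Both groups were ileal organoids of wild-type C57Bl/6 mice, which are cultures of the intestinal epithelium without its other tissue layers. Both had first spent 96 hours in growth medium holding CHIR99021 at 10 µM, so the vehicle libraries carry that agent too. CHIR99021 blocks GSK3, which turns on Wnt signalling and favours stem cells. One group then had 10 µM of retinoic acid, a vitamin A derivative, for 24 hours, and the other had the DMSO vehicle. Polyadenylated RNA was sequenced from 3 libraries of each group. Whether the 3 libraries of each group stem from different mice or cultures is not stated in the labels, and p-values measure the spread between these libraries, which may be technical.

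The libraries held between 14919144 and 21833846 counted reads, and the 50 proteasome rows took between 0.307% and 0.325% of them. Epithelial markers (Epcam, Cdh1, Krt8, Krt18, Krt20, Vil1 and Cldn7) summed to 6995 to 7080 CPM (read counts scaled to library size) in the vehicle libraries and 7206 to 7318 CPM in the retinoic acid libraries. The 10 immune cell markers found in the table summed to 21.9 to 25.5 CPM and 23.7 to 26.8 CPM, and most of that was Csf1r (21.1 ± 2.17 and 20.8 ± 1.56 CPM, SD, n = 3). Ptprc, the pan-leukocyte marker, had no read in any retinoic acid library and 0.0395 ± 0.0684 CPM in the vehicle libraries. Only 3 immune markers had enough reads to be tested, and the groups overlapped for each. For Itgam the vehicle mean was 1.65 ± 1.21 CPM and the retinoic acid mean 2.79 ± 0.322 CPM (fold 1.66, edgeR adjusted p = 0.308). For Cd74 these means were 0.701 ± 0.170 and 0.962 ± 0.381 CPM (fold 1.36, edgeR adjusted p = 0.625). The fold of Csf1r was 0.982, so the sum mostly follows a marker that hardly moved. The 8 stromal markers summed to 5.38 to 5.51 CPM with vehicle and 3.09 to 3.99 CPM with retinoic acid, and the 4 endothelial markers to 1.73 to 2.83 and 0.859 to 2.30 CPM. The part of these other cells in the results below was not tested.

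The proteasome is the large protease that degrades proteins tagged with ubiquitin. Its barrel-shaped core is a stack of rings of alpha and beta subunits, and its proteolytic sites sit on the beta subunits encoded by Psmb5, Psmb6 and Psmb7. A regulatory particle made of a base, which holds the unfolding ATPases, and a lid, which holds the deubiquitinase, caps the core and feeds substrates into it. In immune cells, and in many other cells exposed to interferon, the subunits encoded by Psmb8, Psmb9 and Psmb10 take the place of those encoded by Psmb5, Psmb6 and Psmb7, and this immunoproteasome makes peptides for display on MHC class I. Nfe2l1 (also called TCF11 or NRF1) is a membrane-bound transcription factor that switches on subunit genes together when proteasome capacity falls short. Retinoic acid acts through nuclear receptor pairs that bind DNA at repeats of the half-site AGGTCA.

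One proteasome gene was called after adjustment over all tested genes. Psmb10, the immunoproteasome subunit that replaces Psmb7, was called higher with retinoic acid (edgeR quasi-likelihood test, Benjamini-Hochberg adjusted p = 0.00616 over 13700 tested genes), and no member was called lower. A call here means an adjusted p under 0.05. The count of higher calls is 1 of 49 tested members (2.04%), beside 736 of the 13700 genes (5.37%), and the count of lower calls is 0 beside 560 (4.09%). In either direction 1296 of all tested genes were called (9.46%). With the replicate number as a block the calls over all genes were 1224 higher and 1052 lower, and among members they were Psmb10 and Psmd4, both higher. Without the adjustment 6 members had p under 0.05 (Psmb10, Psmd4, Psmb8, Psma6, Psmd9 and Nfe2l1), beside 2960 of all tested genes (21.6%). In bulk RNA a change in the number of cells of a type and a change in RNA per cell cannot be told apart.

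Most members had point values above 0. The log2 fold change (retinoic acid over vehicle) was above 0 for 39 of 49 members (79.6%), beside 48% of all tested genes. Its median was 0.060 over the members and −0.008 over all tested genes. The median was 0.111 without vehicle library 3, and 0.046 without vehicle library 1. All 3 retinoic acid libraries lay above all 3 vehicle libraries for 9 members (18.4%; 12.9% of all tested genes), and all lay below for Psmd9 alone (2.04%; 12.6% of all tested genes). The 95% interval of the fold change stayed within 1.25-fold of no change for 35 members (71.4%; 44.1% of all tested genes) and within 1.5-fold for 45 (91.8%; 71.5%).

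**Figure D1:**
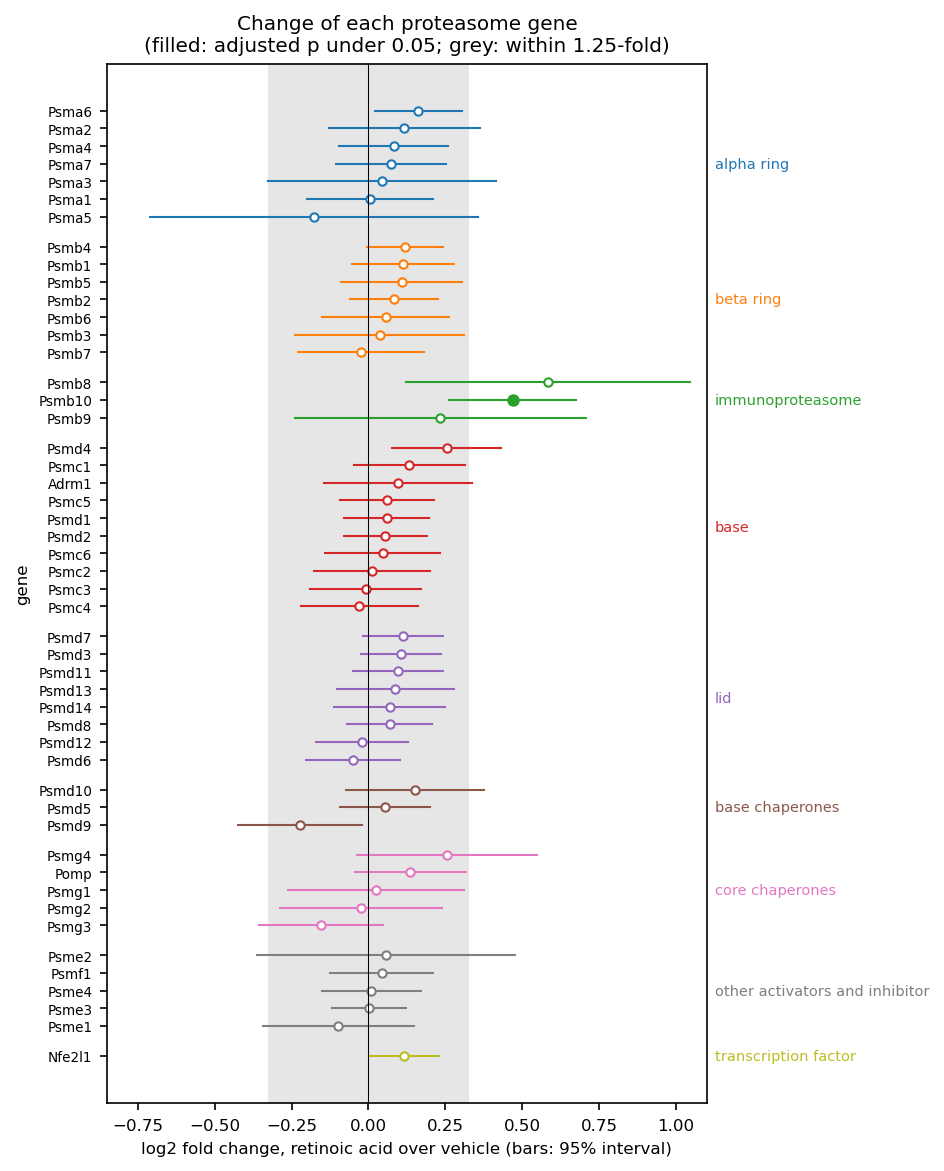
Log2 fold change of each tested proteasome gene, retinoic acid over vehicle, with its 95% interval from the edgeR fit (3 libraries a group), grouped by place in the particle; the grey band spans changes within 1.25-fold. Psmb10 is the only filled point (adjusted p under 0.05), at 0.47, and the 14 core subunits all have point values between −0.18 and 0.16.

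The Psmb10 row (gene ENSMUSG00000031897) lies on the minus strand at chr8:105935728-105938392 in mm10. Its level was 17.5, 19.4 and 20.5 CPM in vehicle libraries 1 to 3 and 25.5, 27.5 and 26.4 CPM in retinoic acid libraries 1 to 3. The groups did not overlap, and the lowest retinoic acid library stood above the highest vehicle library. The means were 19.1 ± 1.52 and 26.5 ± 0.955 CPM (SD, n = 3), and the fitted fold was 1.38 (95% interval 1.20 to 1.60; log2 fold change 0.47, SE 0.096). In the authors' deposited table Psmb10 has a log2 fold change of 0.474 and an FDR of 0.004335, and no other member passes an FDR of 0.05 there. No 50-base stretch of its annotated coding transcript was found in another annotated gene, and no exon of another gene overlapped it.

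Psmb8, the subunit that replaces Psmb5, had a similar point value at a much lower level. It stood at 2.60, 2.61 and 2.76 CPM in the vehicle libraries and 3.56, 4.34 and 4.09 CPM in the retinoic acid libraries, without overlap. The fold was 1.50 with a 95% interval of 1.09 to 2.06, and the edgeR adjusted p was 0.116, so Psmb8 did not pass the test. Psmb9, which replaces Psmb6, was at 4.05, 3.67 and 3.29 CPM with vehicle and at 4.78, 5.02 and 3.23 CPM with retinoic acid. Its groups overlapped, because retinoic acid library 3 lay below every vehicle library (fold 1.18, 95% interval 0.847 to 1.63, edgeR adjusted p = 0.615). Psmb8 and Psmb9 lie near each other on chromosome 17 (34197721 to 34201454 and 34181988 to 34187764 in mm10), beside Tap1, a peptide transporter whose exons overlap those of Psmb9 on the opposite strand. Whether counting used strand is not given in the sources used here, so reads of Psmb9 and Tap1 cannot be told apart with certainty. Tap1 itself was at 17.8 ± 2.55 and 19.5 ± 1.31 CPM (SD, n = 3; edgeR adjusted p = 0.600).

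None of the constitutive partners of these subunits was called. Psmb5 was at 29.1, 28.6 and 34.1 CPM with vehicle and 31.9, 32.3 and 34.6 CPM with retinoic acid (fold 1.08, 95% interval 0.941 to 1.23, edgeR adjusted p = 0.567). Psmb6 was at 18.4, 20.1 and 20.3 CPM and at 20.8, 20.4 and 19.96 CPM (fold 1.04, 0.901 to 1.20, edgeR adjusted p = 0.808). Psmb7 was at 23.6, 23.2 and 24.8 CPM and at 25.3, 21.4 and 23.5 CPM (fold 0.983, 0.852 to 1.13, edgeR adjusted p = 0.920). For all of these the libraries of the groups overlapped.

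**Figure D2:**
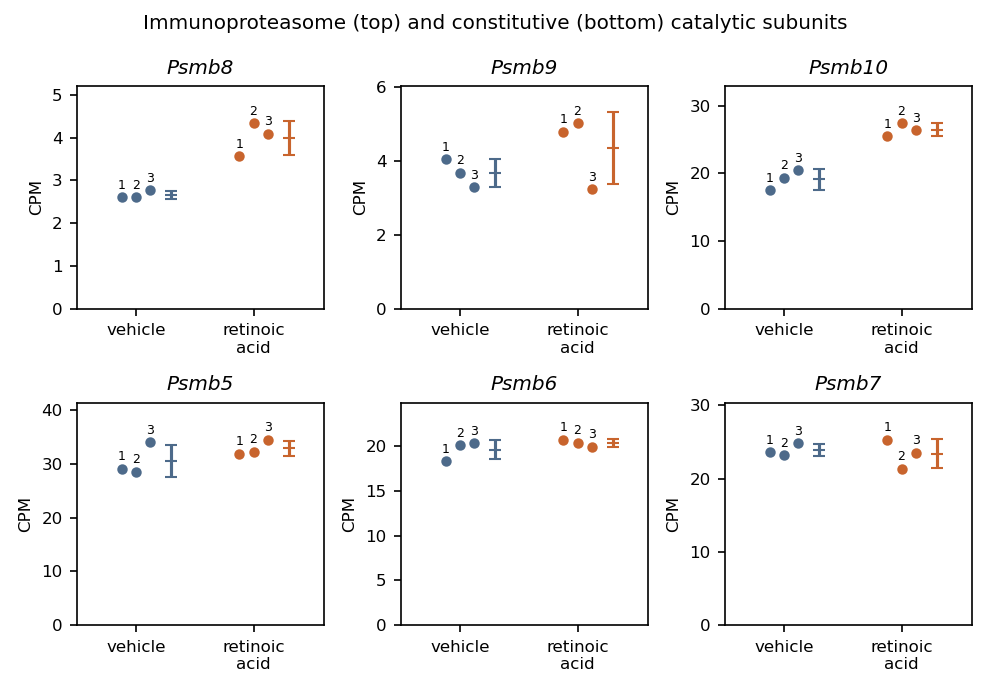
CPM of the immunoproteasome subunits (top) and the constitutive subunits they replace (bottom) in each library, numbered by replicate, with the mean and SD of each group beside the points (n = 3; each vertical axis starts at 0 and has its own scale). The retinoic acid points of Psmb10 (25.5 to 27.5 CPM) and Psmb8 (3.56 to 4.34 CPM) lie above all vehicle points, and those of the other 4 genes overlap them.

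Because each immunoproteasome subunit competes with its partner for the same place in the core, its share of the pair's reads was also compared. Psmb10 made up 42.6%, 45.5% and 45.3% of Psmb10 and Psmb7 reads in the vehicle libraries and 50.2%, 56.25% and 52.9% in the retinoic acid libraries. The share was thus 44.4% ± 1.63 and 53.1% ± 3.02 (SD, n = 3), a difference of 8.68 percentage points. Psmb8 made up 8.20%, 8.35% and 7.50% of Psmb8 and Psmb5 reads with vehicle and 10.0%, 11.8% and 10.6% with retinoic acid, a difference of 2.80 points. Psmb9 made up 18.04%, 15.4% and 13.93% of Psmb9 and Psmb6 reads with vehicle and 18.7%, 19.7% and 13.94% with retinoic acid. These groups overlapped (15.8% ± 2.08 and 17.5% ± 3.09, SD, n = 3). Between libraries with the same number, which the labels do not pair, the retinoic acid share was the higher, for number 3 only just. For number 3 Psmb9 itself was lower with retinoic acid (3.23 against 3.29 CPM), and so was Psmb6 (19.96 against 20.3 CPM). An exact two-sided permutation test of 3 against 3 libraries cannot go below p = 0.1, which is what the Psmb10 and Psmb8 shares gave (0.15 after adjustment over the 3 pairs), and Psmb9 gave an exact p of 0.4. This test does not use any pairing of libraries by number. The shares are of reads, not of protein, and were nearly the same per length of coding sequence (53.5% for Psmb10 with retinoic acid). Of the 50-base stretches of Psmb5, 57.1% also occur in another annotated gene. Exons of Psmb7 and Psmb8 overlap those of Nek6 and Gm20496 on the opposite strand. The part of such reads in the shares was not tested.

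**Figure D3:**
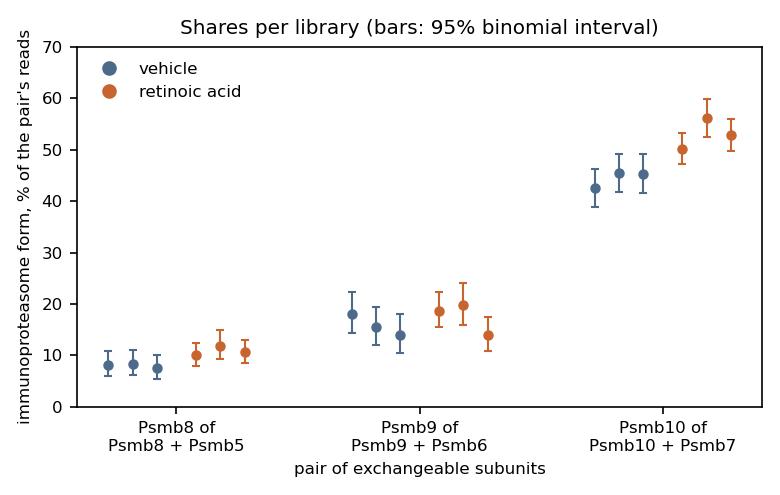
Share of each exchangeable pair's reads that came from the immunoproteasome gene, in percent, per library, with exact (Clopper-Pearson) 95% binomial intervals that cover counting error only. The Psmb10 share lies between 42.6% and 45.5% in the vehicle libraries and between 50.2% and 56.25% in the retinoic acid libraries, while the Psmb9 shares of the groups overlap.

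The sequence before the Psmb10 start is shown because Psmb10 is the member that was called. Those of Psmb8 and Psmb9 are shown for comparison (RefSeq starts, build GRCm38.p6, printed in the direction of the gene). The windows were the 250 bases before each RefSeq start. For Psmb10 the first line is the part of the window outside every annotated transcript of the gene, and the other lines are 30 bases around a match. Capitals mark matches to the motifs searched on both strands: the E-box CACGTG, the retinoid half-site AGGTCA (printed in its reverse form), the STAT core TTCNNNGAA and the CCAAT box (in its reverse form).
Psmb10 upstream, chr8:105938445-105938642, minus strand: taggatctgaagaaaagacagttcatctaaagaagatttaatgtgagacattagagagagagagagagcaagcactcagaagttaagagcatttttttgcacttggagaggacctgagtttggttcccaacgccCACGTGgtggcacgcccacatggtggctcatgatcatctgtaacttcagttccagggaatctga
Psmb10 half-site, chr8:105938417-105938446, minus strand: gatgccctcttcTGACCTtggtgggcatgt
Psmb8 STAT core, chr17:34198087-34198116, plus strand: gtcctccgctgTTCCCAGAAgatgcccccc
Psmb9 CCAAT box, chr17:34187331-34187360, minus strand: cctgcaccgcgcgcagccgctgATTGGaaa

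The AGGTCA match of Psmb10 lies 42 to 37 bases before the RefSeq start, and its E-box 116 to 111 bases before it. GENCODE M21 places the start of Psmb10 farther upstream, so 52 bases of the window, the half-site among them, are first exon there. For Psmb8 and Psmb9 all 250 bases of the window lie inside the span of the gene in GENCODE and in the table, so their printed stretches are upstream of the RefSeq start only. The 12 bases before the half-site, gatgccctcttc, stand in 54 of the 32851 promoter windows, so this is repeated sequence. No repeat annotation was used, and the bases around the E-box were not checked, so they may be repeated sequence too. No window of a member held AGGTCA as a direct repeat with 5, 2 or 1 bases between (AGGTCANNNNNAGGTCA, AGGTCANNAGGTCA or AGGTCANAGGTCA), but only 3, 3 and 11 of all 32851 windows did (0.00913%, 0.00913% and 0.0335%), so their absence from 50 windows says nothing about the members. A single AGGTCA was in 13 of the 50 windows that matched 43 member genes (26%) and in 14.0% of all windows. A gene with several starts has several windows, so these shares and those below count windows, not genes. The 13 windows belong to fewer genes: Nfe2l1, Psma3, Psma6, Psma7, Psmb10, Psmc2, Psmc4, Psmc5, Psmd2 and Psmd6. The antioxidant element core TGACNNNGC, the kind of site Nfe2l1 and Nfe2l2 bind with small Maf partners, was in 6 member windows (12%; 10.2% of all), those of Adrm1, Psmb5, Psmb6, Psmc6, Psmd12 and Psmd9. The interferon element core TTTCNNTTTC was in 3 (6%; 2.98%), TTCNNNGAA in 2 (4%; 7.02%), CCAAT in 19 (38%; 33.8%) and CACGTG in 4 (8%; 6.02%). These matches describe letters, not bound sites. Any overlap between motifs was counted under each.

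Of the 14 constitutive core subunits, 12 had point values above 0 (85.7%, beside 48% of all tested genes). None of the 14 was called, beside 9.46% of all tested genes, and their median log2 fold change was 0.078. Their summed level was 559 ± 11.2 CPM in the vehicle libraries and 596 ± 10.8 CPM in the retinoic acid libraries (SD, n = 3), a ratio of 1.07. The sum was 548, 559 and 570 CPM in vehicle libraries 1 to 3 and 603, 584 and 602 CPM in retinoic acid libraries 1 to 3, so the groups did not overlap, though a sum over members carries no test here. The immunoproteasome genes summed to 25.5 ± 1.22 and 34.8 ± 1.73 CPM, a ratio of 1.37, most of it Psmb10.

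In the alpha ring, whose subunits form the gated entry of the core, Psma6 had the smallest p. It was at 70.7, 72.5 and 67.3 CPM with vehicle and 80.7, 79.9 and 75.1 CPM with retinoic acid. Its groups did not overlap, but the edgeR adjusted p was 0.166 (fold 1.12, 95% interval 1.01 to 1.23). Psma1, with the largest p of the ring, was at 33.3, 28.1 and 28.6 CPM and at 32.3, 29.2 and 28.8 CPM (fold 1.00, 95% interval 0.872 to 1.16, edgeR adjusted p = 0.985). In the beta ring the smallest p was that of Psmb4, a structural beta subunit, at 137, 141 and 137 CPM with vehicle and 152, 145 and 154 CPM with retinoic acid (fold 1.09, 0.996 to 1.18, edgeR adjusted p = 0.259). All 7 beta ring intervals lay within 1.25-fold of no change, and 4 of the 7 alpha ring intervals did. The alpha ring exceptions were Psma2, Psma3 and Psma5, the alpha subunits with the lowest counts.

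The core holds each subunit in equal number, but the read counts of its genes did not. Per kilobase of coding length, the vehicle means ran from 4.45 ± 0.49 CPM for Psma5 to 175 ± 2.71 CPM for Psmb4 (SD, n = 3). Psma3 (10.6 ± 2.49) and Psma2 (17.9 ± 0.78) followed Psma5 at the low end, and Psmb2 (135 ± 8.76) and Psma6 (95.1 ± 3.60) preceded Psmb4 at the high end. Steps between these were larger than the spread between libraries, while neighbours in the middle of the order (Psmb6 at 27.5 ± 1.51 and Psmb7 at 28.7 ± 0.99; Psma1 at 38.0 ± 3.67 and Psmb5 at 38.6 ± 3.82) did not differ beyond it. The order uses coding length. Per kilobase of whole transcript Psmb4 was again highest (117 ± 1.82), but Psma5 (2.59 ± 0.29) and Psma3 (2.86 ± 0.67) did not differ beyond their spread. Psmb10 stood at 23.4 ± 1.86 CPM per kilobase of coding length with vehicle and 32.3 ± 1.17 with retinoic acid, and Psmb8 at 3.21 ± 0.11 and 4.83 ± 0.48, on the same scale.

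**Figure D4:**
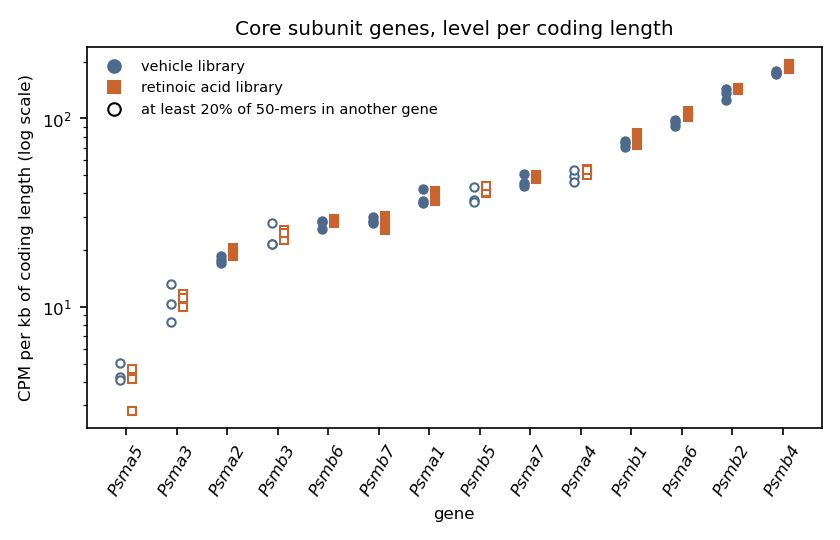
CPM per kilobase of coding length (log axis) of the 14 constitutive core genes in each of the 3 vehicle and 3 retinoic acid libraries, ordered by the vehicle mean; open symbols are genes with at least 20% of their 50-base stretches in another annotated gene. The levels run from 4.45 (Psma5) to 175 (Psmb4) in the vehicle means, and 5 of the 14 genes, among them the lowest 2, are open.

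Some of these genes share sequence with others. Of the 50-base stretches of the Psma5 transcript, 54.5% also occur in another annotated gene, and the figures are 22.0% for Psma3, 55.8% for Psmb3, 57.1% for Psmb5 and 25.6% for Psma4. How reads that match several places were treated is not given in the sources used here. Its part in the order of levels was not tested beyond the copy rows described next.

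There were 5 members with a retrocopy, a gene copy made from spliced RNA, that has a row of its own in the table, and for 4 of them most reads stood in the row of the copy. The clearest case is Psme2, which encodes the beta subunit of the proteasome activator PA28. Psme2 and its copy Psme2b on chromosome 11 (48945354 to 48946190) are 99.3% identical over the coding sequence, with 5 differing bases of 717. Coding bases 484 to 543 hold 3 of these, shown in capitals because reads that cover such bases can tell the genes apart (GENCODE M21 transcripts).
Psme2: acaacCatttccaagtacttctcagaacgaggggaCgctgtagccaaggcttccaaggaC
Psme2b: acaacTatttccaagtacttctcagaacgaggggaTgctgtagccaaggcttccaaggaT

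The Psme2 row held 1.84% of the reads of both rows. It was at 4.28, 3.73 and 4.28 CPM with vehicle and 4.69, 4.41 and 3.69 CPM with retinoic acid, with overlap (fold 1.04, 95% interval 0.778 to 1.39, edgeR adjusted p = 0.909). The Psme2b row was at 211, 205 and 196 CPM with vehicle and 240, 226 and 248 CPM with retinoic acid, without overlap. Psme2b was called higher (fold 1.17, 95% interval 1.07 to 1.27, edgeR adjusted p = 0.0306). The call was lost when any 1 library other than retinoic acid library 2 was left out (edgeR adjusted p 0.0552 without vehicle library 1, 0.0861 without vehicle 2, 0.111 without vehicle 3, 0.120 without retinoic acid 1 and 0.0556 without retinoic acid 3). It held in the other alternatives. With the reads of both rows added, an alternative chosen after seeing the data, the level was 208 ± 7.59 and 242 ± 10.9 CPM (SD, n = 3; edgeR adjusted p = 0.0313). Which of the genes gave the reads cannot be told from the table.

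Adrm1, a ubiquitin receptor of the base, held 13.8% of the reads of Adrm1 and Gm9774, which are 99.8% identical over the coding sequence with 3 differing bases of 1221. Adrm1 was at 20.6, 23.7 and 28.5 CPM with vehicle and 26.8, 25.9 and 24.9 CPM with retinoic acid, and Gm9774 at 154 ± 16.9 and 159 ± 17.2 CPM (SD, n = 3); neither was called (edgeR adjusted p = 0.697 and 0.823). Psmd2, a scaffold of the base, held 26.4% of the reads of Psmd2 and Gm5422 (96.7% identical). For Gm5422 alone the vehicle mean was 220 ± 10.8 CPM and the retinoic acid mean 222 ± 8.09 CPM (SD, n = 3). For Psmd2 alone these means were 77.7 ± 2.47 and 80.7 ± 1.85 CPM. Psma5 held 21.4% of the reads of Psma5 and Gm8394 (98.9% identical), and the sum of both was 20.2 ± 0.880 CPM per kilobase of coding length with vehicle. With these reads added Psma5 would no longer stand lowest in the core, but above Psma3 (10.6) and Psma2 (17.9). The values of Psma3 and Psma2 have no copy reads added. Gm13835, which shares 22.0% of the 50-base stretches of Psma3, has no row, so this order compares unlike measures. Psmb3 is the exception, with 93.3% of the reads of Psmb3 and Gm4950 in its own row. Of these copies only Psme2b was called.

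**Figure D5:**
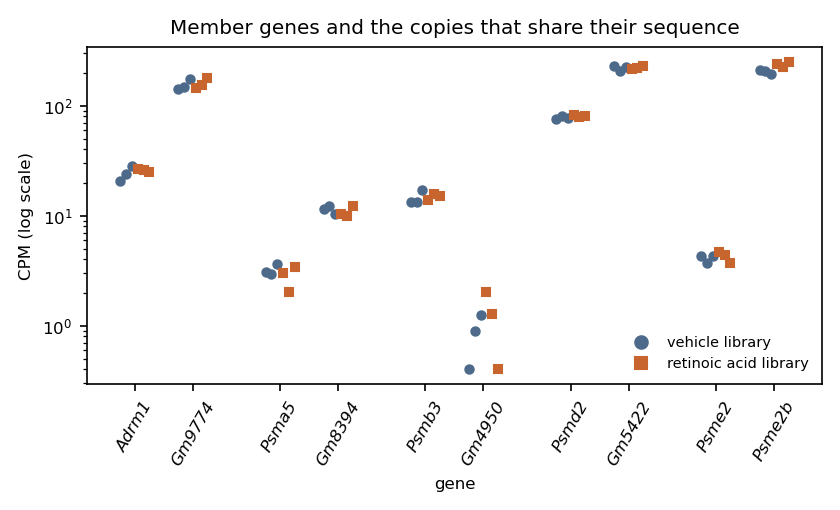
CPM (log axis) of 5 proteasome genes and, to the right of each, the retrocopy with a row in the table, in the 3 vehicle and 3 retinoic acid libraries. For Adrm1, Psma5, Psmd2 and Psme2 the copy stands above the gene, with Psme2b at 204 and 238 CPM on average and Psme2 at 4.10 and 4.26 CPM.

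None of the 18 base and lid genes was called, beside 9.46% of all tested genes. Point values were above 0 for 14 of them (77.8%, beside 48% of all tested genes), and the median log2 fold change was 0.064. The 10 base rows summed to 548 ± 24.9 and 571 ± 15.0 CPM and the 8 lid rows to 718 ± 26.4 and 754 ± 22.6 CPM (SD, n = 3). The base sum leaves out the copy rows of Adrm1 and Psmd2, Gm9774 and Gm5422, at 154 and 220 CPM with vehicle. The base and lid sums are therefore not on equal terms. Psmd4, which encodes the ubiquitin receptor RPN10 of the base, came closest to the threshold. It was at 47.9, 42.7 and 51.6 CPM with vehicle and 54.4, 59.8 and 55.4 CPM with retinoic acid, without overlap (fold 1.19, 95% interval 1.05 to 1.35, edgeR adjusted p = 0.0755). Psmd4 passed with the replicate number as a block (edgeR adjusted p = 0.0273), with no filter on low counts (0.0301) and without vehicle library 3 (0.0416), and in the other alternatives it did not. Psmc3, a base ATPase with the largest p of the base, was at 52.3, 51.4 and 57.5 CPM and at 48.2, 53.7 and 58.3 CPM (fold 0.994, 0.876 to 1.13, edgeR adjusted p = 0.970).

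Among the 8 lid genes taken by the rule, Psmd7 had the smallest p. It was at 136, 128 and 137 CPM with vehicle and 139, 146 and 148 CPM with retinoic acid (fold 1.08, 95% interval 0.987 to 1.18, edgeR adjusted p = 0.317). Its product pairs with that of Psmd14, the deubiquitinase of the lid, which was at 32.2 ± 1.70 and 33.8 ± 1.77 CPM (SD, n = 3; edgeR adjusted p = 0.706). Psmd12 had the largest p of the lid (57.6 ± 2.63 and 56.7 ± 1.48 CPM, edgeR adjusted p = 0.908). All 8 lid intervals lay within 1.25-fold of no change, as did 8 of the 10 base intervals; Psmd4 and Adrm1 were the exceptions.

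The chaperones that assemble the particle were not called either. Psmd9, which helps build the base, was the one member with every retinoic acid library below every vehicle library: 30.9, 31.1 and 30.9 CPM with vehicle and 26.0, 23.9 and 29.5 CPM with retinoic acid. Its fold was 0.857 (95% interval 0.745 to 0.985, edgeR adjusted p = 0.178), and it passed only when retinoic acid library 3 was left out (0.0465). Psmd5, with the largest p of the base chaperones, was at 51.7 ± 0.642 and 53.6 ± 1.04 CPM (SD, n = 3; edgeR adjusted p = 0.724). Among the core chaperones Psmg4 had the smallest p (11.2 ± 1.71 and 13.3 ± 1.02 CPM, edgeR adjusted p = 0.306) and Psmg1 the largest (17.5 ± 0.707 and 17.9 ± 3.61 CPM, edgeR adjusted p = 0.944). Pomp, which guides the ripening of the core, was at 35.5, 35.8 and 37.9 CPM with vehicle and 40.8, 36.4 and 42.5 CPM with retinoic acid (fold 1.10, 0.970 to 1.24, edgeR adjusted p = 0.394).

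The rows of the other activators and the inhibitor had log2 fold changes of −0.098 to 0.057, and none was called. The Psme2 row among them held only 1.84% of the reads of Psme2 and Psme2b. With both rows added, the alternative chosen after seeing the data, its log2 fold change was 0.219 (edgeR adjusted p = 0.0313). Psme3, the nuclear relative of the PA28 subunits, had the highest level per coding length of all members, at 394 ± 1.39 CPM per kilobase with vehicle and 394 ± 16.9 with retinoic acid (SD, n = 3). Per kilobase of whole transcript Psme3 was not the highest with vehicle (113 ± 0.397, beside 121 ± 2.93 for Nfe2l1 and 117 ± 1.82 for Psmb4). Its 6 libraries lay at 299, 301 and 300 CPM with vehicle and 309, 286 and 306 CPM with retinoic acid, and the 95% interval of the fold was 0.922 to 1.09 (edgeR adjusted p = 0.992). Psme4, the activator PA200, was at 84.2 ± 4.77 and 84.8 ± 7.09 CPM (interval of the fold 0.901 to 1.13). Psme1, the alpha subunit of PA28, was at 14.0, 14.6 and 14.9 CPM and at 14.9, 13.0 and 12.8 CPM (fold 0.934, 0.788 to 1.11, edgeR adjusted p = 0.693). Psmf1, the inhibitor PI31, was at 43.8 ± 2.34 and 45.0 ± 2.36 CPM (edgeR adjusted p = 0.820). Psmb11, the beta subunit of thymic epithelium, had 0, 2 and 11 reads in the vehicle libraries and 0, 0 and 1 in the retinoic acid libraries, too few to test.

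Nfe2l1 was the member with the most reads. It was at 560, 552 and 578 CPM with vehicle and 599, 611 and 622 CPM with retinoic acid, without overlap, yet the difference was small and did not pass (fold 1.08, 95% interval 1.00 to 1.17, edgeR adjusted p = 0.210; 0.0576 with the replicate number as a block). Of 15 genes that process Nfe2l1 or share its sites, 3 were called higher and 1 lower, beside 5.37% and 4.09% of all tested genes. The median log2 fold change of the 15 was 0.000262. Nfe2l2, the related factor of the oxidative stress response, was at 476, 475 and 463 CPM with vehicle and 805, 824 and 812 CPM with retinoic acid (fold 1.73, edgeR adjusted p = 1.89e-07). Mafg, a small Maf partner of both factors, rose 1.29-fold (291 ± 9.42 to 377 ± 22.9 CPM, SD, n = 3; edgeR adjusted p = 0.00123), and Maff rose 1.19-fold (edgeR adjusted p = 0.0405). Ddi2, the protease that cuts Nfe2l1 to its active form, was lower, at 277, 272 and 298 CPM with vehicle and 234, 234 and 256 CPM with retinoic acid (fold 0.855, edgeR adjusted p = 0.0324). The calls of Ddi2 and Maff were lost when any 1 library other than retinoic acid library 3 was left out (edgeR adjusted p 0.0644 to 0.159 for Ddi2 and 0.0780 to 0.157 for Maff). These lists, like the members, were drawn up with earlier results of these data known.

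The 24 tested genes of ubiquitin supply and proteasome partners had a median log2 fold change of 0.032. Among them 1 was called higher (beside 5.37% of all tested genes) and none lower (beside 4.09%). It was Zfand5, a ubiquitin-binding partner of the proteasome, at 199, 199 and 184 CPM with vehicle and 277, 254 and 257 CPM with retinoic acid (fold 1.35, edgeR adjusted p = 0.00036). The polyubiquitin gene Ubb was at 421 ± 23.3 and 414 ± 38.9 CPM (SD, n = 3; edgeR adjusted p = 0.897) and was not called. Usp14, a deubiquitinase that docks on the base, was at 81.3 ± 7.40 and 93.7 ± 5.69 CPM (SD, n = 3; edgeR adjusted p = 0.124).

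Of 12 tested genes of the MHC class I pathway, which the immunoproteasome serves, 4 were called higher and none lower. Beside this, 5.37% of all tested genes were called higher and 4.09% lower. The median log2 fold change of the 12 was 0.157. Irf1, a transcription factor of the interferon response, was at 93.1, 98.3 and 84.6 CPM with vehicle and 125, 128 and 126 CPM with retinoic acid (fold 1.37, edgeR adjusted p = 0.000591). The chaperone Calr rose 1.21-fold (edgeR adjusted p = 0.00498), and the class I heavy chains H2-D1 and H2-K1 rose 1.21-fold and 1.14-fold (edgeR adjusted p = 0.00781 and 0.0476). The H2-K1 call was lost when any 1 library was left out (edgeR adjusted p 0.0704 to 0.194) and with the other filter, of 10 counts per library (0.0542), and that of H2-D1 without vehicle library 1 (0.0505). H2-D1 and H2-K1 belong to a multigene family, and reads may be split among its members. B2m, the class I light chain, was at 245 ± 15.2 and 259 ± 20.7 CPM (SD, n = 3; edgeR adjusted p = 0.610).

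Of 14 genes of heat shock and protein damage, 3 were called higher and none lower, beside 5.37% and 4.09% of all tested genes. The median log2 fold change of the 14 was 0.074. Hmox1, haem oxygenase, was at 44.1, 42.8 and 48.6 CPM with vehicle and 92.9, 79.4 and 74.7 CPM with retinoic acid (fold 1.83, edgeR adjusted p = 1.94e-05). Sqstm1, the autophagy receptor p62, rose 1.31-fold (547 ± 19.6 to 715 ± 5.02 CPM, SD, n = 3; edgeR adjusted p = 0.000298). Ddit3, a factor of the integrated stress response, rose 1.19-fold (edgeR adjusted p = 0.0271). Its call was lost when any 1 library other than retinoic acid library 3 was left out (edgeR adjusted p 0.0520 to 0.132). The heat shock genes Hspa1a (6.66 ± 1.09 and 7.77 ± 2.07 CPM), Hspa1b (32.9 ± 11.4 and 35.9 ± 9.38 CPM), Dnajb1 (97.0 ± 4.47 and 101 ± 2.21 CPM) and Hsp90aa1 (13.3 ± 0.305 and 13.9 ± 0.558 CPM) were not called (edgeR adjusted p = 0.571, 0.761, 0.685 and 0.800).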

How the data were processed

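Directional polyadenylated RNA libraries of 3 vehicle and 3 retinoic acid samples were used, per the labels' protocols. The authors deposited 1 table of raw read counts per gene with DESeq p-values, FDR and log2 fold changes, per the file headers. The build was mm10, per the submitters' processing notes. Not given in the sources used here are the aligner, the annotation, the use of strand and the treatment of multi-mapping reads.

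Counts were filtered with filterByExpr at its defaults (13700 of 21534 rows kept), scaled with TMM (factors 0.978 to 1.02) and tested with edgeR 4.0.16 in R 4.3.3 (glmQLFit and glmQLFTest, treatment only, two-sided, Benjamini-Hochberg over all tested rows, threshold 0.05). CPM use the TMM-scaled library sizes. Standard errors and 95% intervals come from the same fit. The steps were also run on simulated counts in which every gene had the same spread. Differences between replicates like those given next were not simulated, so that run says nothing about them. Replicates of a group differed by a chi-square statistic of 4.09 to 11.1 per row, so no library repeated the counts of another. Retinoic acid library 3 differed from libraries 1 and 2 by 11.1 and 10.4, and these from each other by 4.09. The statistic cannot tell separate preparations of the same RNA or culture from separate cultures.

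Deviations from the group means correlated at 0.166, 0.124 and 0.346 for libraries with the same number, each over 0.1. For unlike numbers they correlated at −0.226 to 0.0922. Vehicle 1 with retinoic acid 2 (0.0922) and vehicle 2 with retinoic acid 1 (0.0885) came close to the 0.124 of number 2. Only number 3 stood clearly apart, so these values do not settle whether numbers 1 and 2 pair the libraries. The labels give no pairing. The fit with the replicate number as a block was therefore an alternative only.

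Other alternatives were DESeq2 size factors, no filter, at least 10 counts in every library of a group, DESeq2 1.42.0, limma-voom (limma 3.58.1), leaving out each library, and the reads of retrocopies added to their gene, which was chosen after seeing the data. Shared 50-base stretches came from GENCODE M21, copies were aligned with Biopython 1.88, and promoter windows are RefSeq's. Promoters of Psmb1, Psmb2, Psmb7, Psmc3, Psmd3, Psmd7 and Psmg2 had no match.

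The members and gene lists were chosen with earlier results of these data known. Named with values were every called member, the catalytic subunits and their partners, the activators, Pomp, Adrm1 and Nfe2l1, in each place of the particle the members with the smallest and largest p, the highest and lowest core levels, and up to 4 called genes of each list. Other genes named with values (such as Psmd14, Ubb, B2m or Hspa1a) were chosen after their values were seen. A few genes of the lists are not reported here.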

Additional observations from a re-analysis of the deposited data

How the results depend on the processing

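Psmb10 was called higher in all 13 alternatives (log2 fold change 0.41 to 0.52, edgeR, DESeq2 or limma adjusted p 0.000483 to 0.0371). The number of members called higher was 2 with no filter on low counts and 2 with the replicate block (Psmb10 and Psmd4), 2 with copy reads added (Psmb10 and Psme2), and 1 to 2 with 1 library left out. The number called lower was 0 to 1 with 1 library left out (Psmd9, without retinoic acid replicate 3) and 0 otherwise. Over all genes the replicate block gave 1224 higher and 1052 lower, and leaving out 1 library gave 443 to 978 higher and 289 to 787 lower, the fewest without retinoic acid replicate 1. The median log2 fold change of the members was 0.046 to 0.111 with 1 library left out. The block changed no call of another member. Of 506 values of 39 named genes 452 kept their direction and side of the threshold, 28 lost it, 5 gained it and 21 turned direction in 10 uncalled genes. These were Psmc3 with no filter (0.000976) and Psmg1 with limma-voom (−0.0099), and with 1 library left out the values ran from −0.019 to 0.037 for Psme3, −0.013 to 0.22 for Adrm1, −0.056 to 0.0045 for Psmd12, −0.022 to 0.16 for Psme2, −0.050 to 0.087 for Psma1, −0.085 to 0.034 for Psmb7, −0.060 to 0.058 for Psme4, −0.079 to 0.063 for Psmc3, −0.13 to 0.15 for Psmg1 and −0.0017 to 0.082 for Psmf1. The cause of these was not tested. Psmb8, Psmb9, Psma5 and Psme2, with the fewest reads of the tested members, had intervals past 1.25-fold, and so had members with more reads such as Psmd4 and Adrm1; the part of depth was not tested.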
